A study of Homo sapiens with 25 samples.

Results

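The 8 mRNAs described here are those of 6 enzymes of cholesterol synthesis (HMGCS1, IDI1, FDFT1, SQLE, LSS and SC5D), of SREBF2, which encodes the transcription factor SREBP-2, and of INSIG1, the endoplasmic reticulum protein that holds SREBPs back. They were taken by name out of 63086 genes in each count file, and all 8 passed the filter that left 8734 protein-coding genes for testing. INSIG1 was chosen by its measured values, namely an interaction of the S181E mutation with arsenite. Its levels in wild-type and S181E libraries are therefore a description with no test. The readout was RIP-seq, in which mCherry-tagged IGF2BP1, an RNA-binding protein, was captured from lysates of HCT116 colorectal carcinoma cells and the RNA that came down with it was sequenced.

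There were 25 libraries. The 23 mCherry libraries came from cells labelled IGF2BP2 KO, IGF2BP3 KO and Tet-OsTIR1-PURO that expressed mCherry-IGF2BP1 as wild-type (WT), S181E, Y396E or RQ (R167Q, R168Q, R174Q and R178Q). The S181E and Y396E substitutions mimic phosphorylation in the first and the second disordered linker, and RQ removes arginines of the first linker. Each line was collected after PBS (control) or sodium arsenite (500 µM for 2 h), which causes oxidative stress, with 3 libraries per group and 2 for RQ in arsenite. Parental HCT116 cells, without the fusion protein, gave 1 library per treatment and measure the background of the capture. The fusion protein was expressed from a human PGK promoter after lentiviral transduction. Each genotype was a transduced and sorted line, so a difference between mutants and a difference between lines cannot be told apart. Within a line, the replicates were dishes plated and grown independently, and p-values measure the spread between dishes. All levels are RIP levels that are not divided by the cells' RNA levels, so a change in binding and a change in the amount of an mRNA cannot be told apart, nor can fewer cells with an mRNA and less of it per cell.

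The mCherry libraries held between 22246381 and 60273548 counts each. The parental arsenite library held 18942497 counts and the parental control library only 1238013. The epithelial markers EPCAM, CDH1, KRT8, KRT18 and KRT19 were present in all libraries, and PTPRC was listed at 0 in all. Of the other non-epithelial markers, COL1A1 exceeded 10 CPM (counts scaled to each library's total) in 4 of 23 mCherry libraries. CD3E, COL3A1, PECAM1, VWF and ALB exceeded it in none. The source of the COL1A1 counts was not tested. IGF2BP1 mRNA had a count of 0 in both parental libraries. Given their depth, this mRNA could still have reached 2.02 CPM in the control library or 0.130 CPM in the arsenite one. It was 66.4 CPM ± 4.82 (SD, n = 3) in WT control libraries, and against WT it was called higher in Y396E (log2 fold change 0.46 in control and 0.45 in arsenite) and in RQ (0.72 and 1.02), by edgeR's test described below. In arsenite against control it was called lower in all 4 lines, by −0.84 to −0.52. IGF2BP2 and IGF2BP3 mRNA were found in all mCherry libraries, at 131 to 294 CPM and 147 to 429 CPM, and a gene count does not check for the protein. IGF2BP3 was called higher than in WT in control in S181E (0.73, adjusted p = 3.72e-07) and Y396E (0.59, adjusted p = 2.99e-06). In arsenite its differences from WT were 0.24 in S181E and 0.21 in Y396E, and neither was called. SREBF2 and SQLE were lower than in WT in these 2 lines under both treatments. The part of IGF2BP1 and IGF2BP3 levels in the differences between lines was not tested.

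Cells make cholesterol from acetyl-CoA through mevalonate, isoprenoids, squalene and lanosterol. When sterols run low in the endoplasmic reticulum, INSIG proteins release SCAP and SREBP-2, which moves to the Golgi, is cut there and switches on the genes of the pathway, INSIG1 among them. IGF2BP1 is known for binding mRNAs in the cytoplasm and protecting many of them from decay, and for moving into stress granules after arsenite.

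The genes lie on different chromosomes of hg38, apart from SQLE and FDFT1, which share a chromosome. INSIG1 (ENSG00000186480.13) is at chr7:155297776-155310235 on the plus strand, and SREBF2 (ENSG00000198911.13) is at chr22:41833105-41907305 on the plus strand. HMGCS1 (ENSG00000112972.15) is at chr5:43287470-43313512 on the minus strand. No other annotated gene on the same strand overlapped an exon of any of the 8. Their canonical mRNAs in GENCODE 44 were 2035 bases (FDFT1) to 6854 bases (SC5D) long, against a median of 3682 over the genes tested. The 3′ untranslated region was longer than the median of 1537 bases in 6 of the 8, from 1648 bases in SREBF2 to 5901 in SC5D, and shorter in FDFT1 (692) and SQLE (341). GC content was 58.0% in SREBF2 and 58.1% in LSS, and 36.9 to 46.5% in the other 6, with a median of 48.2% over the genes tested. A bipartite element of the kind described for IGF2BP1, CGGAC followed after 10 to 21 bases by CAC or CAT with a C or an A before it, occurred on the sense strand of 1 of the 8 mRNAs (SQLE) and of 20.3% of the mRNAs of the genes tested. These are descriptions of the letters, and a match is no binding site.

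SREBP-2 acts with the CCAAT-binding factor NF-Y at sterol genes, so the promoters of the members were searched on both strands for the sterol regulatory element TCACNCCAC and for CCAAT. RefSeq promoter windows of 300 bases (GRCh38.p14, 250 before the start site) were used for 6 members, some with several start sites. CCAAT was found in at least 1 window of all 6, in 8 of their 10 windows, against 34.61% of 35116 windows in all. The SC5D windows overlap and hold the same CCAAT. The share over all is per window, so it is no background for the count of 6 genes. The sterol element was found in 1 window, that of SREBF2, against 1.13% of all windows. The stretches are shown for the regulator SREBF2, for INSIG1 and for HMGCS1, which differ in how their RIP levels moved below, with the searched letters of either strand in capitals (ATTGG is CCAAT on the other strand). They are chr22:41832952-41833023 on the plus strand, chr7:155297688-155297732 on the plus strand and chr5:43313488-43313587 on the minus strand, each written 5′ to 3′ along its gene.
SREBF2: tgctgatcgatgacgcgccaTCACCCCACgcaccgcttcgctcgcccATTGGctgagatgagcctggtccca
INSIG1: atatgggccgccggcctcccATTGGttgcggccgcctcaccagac
HMGCS1: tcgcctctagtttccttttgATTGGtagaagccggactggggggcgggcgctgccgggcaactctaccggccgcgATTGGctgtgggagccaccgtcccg

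Levels were set across libraries as CPM after TMM scaling, which corrects each library's total for its composition. SREBF2 was far the most abundant of the 8 per length: in WT control libraries its mean level was 123 CPM per kb of exon, against 15.1 for INSIG1, 10.5 for SQLE, 8.54 for FDFT1, 4.76 for HMGCS1, 3.49 for IDI1, 3.28 for SC5D and 2.99 for LSS. IDI1 was the weakest measurement, with more than 10 CPM in 13 of 23 mCherry libraries. The other members exceeded 10 CPM in 21 or more.

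**Figure D1:**
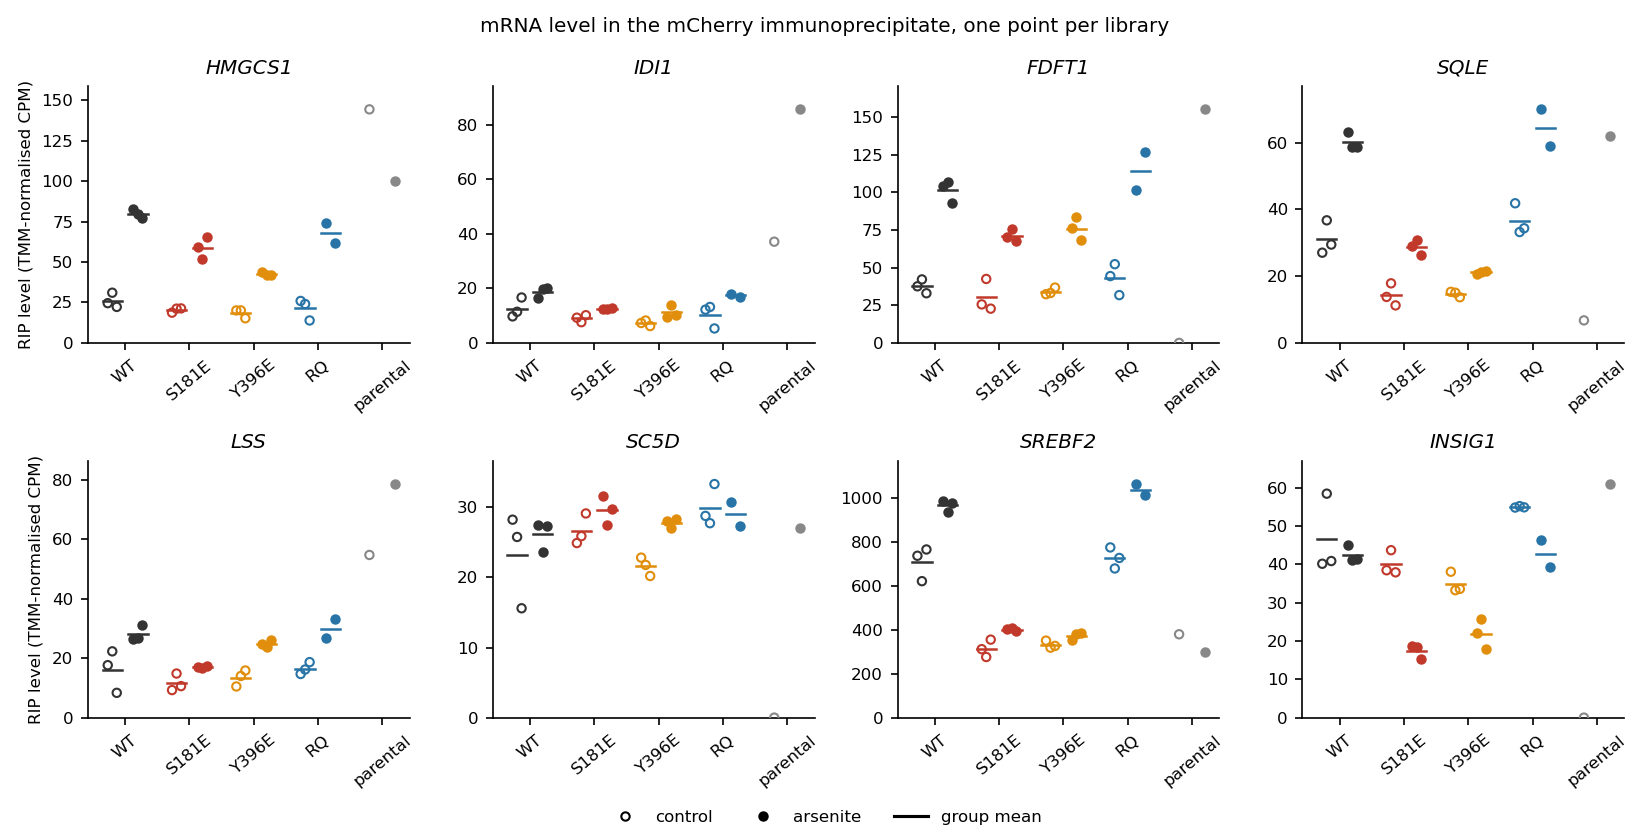
RIP level of each of the 8 mRNAs in TMM-normalised CPM (vertical axis, starting at 0) in every library, by line, with open points for control, filled points for arsenite and bars for group means (none for the single parental libraries). SREBF2 and SQLE sit lower in S181E and Y396E than in WT and RQ under both treatments, and in arsenite only SREBF2 lies more than 3-fold above the parental library in WT.

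The parental libraries set the limit on reading these levels as capture by IGF2BP1. In arsenite only SREBF2 came down clearly above the background: its mean of 964 CPM in WT was 3.22-fold the parental level (3.12 to 3.29 over the 3 libraries). The other 7 mRNAs were at or below the parental level in WT arsenite libraries, from 0.218-fold for IDI1 to 0.971-fold for SQLE, with INSIG1 at 0.698-fold. None of the 8 reached 4-fold, the level used for enrichment in the study's methods, which 9.18% of all genes tested reached in arsenite. In control the parental library was too shallow to place several of them. INSIG1, FDFT1 and SC5D had no parental count, so that every WT library was at least 19.8-fold (INSIG1), 16.3-fold (FDFT1) or 7.71-fold (SC5D) higher, taken against the level of 3 parental counts, and SQLE was 4.60-fold over 10 parental counts. HMGCS1 (0.180-fold), IDI1 (0.339-fold) and LSS (0.294-fold) were below the parental level, and SREBF2 was 1.87-fold above it. Among all genes tested 49.0% reached 4-fold in control, and 3572 of 8734 had no parental count. With 1 parental library per treatment there is no replicate check, and these limits cover counting error only.

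Within each line, arsenite was compared with control over all 8734 genes in a single edgeR quasi-likelihood model of the 23 mCherry libraries. A call needed both a Benjamini-Hochberg adjusted p below 0.05 and a change of more than 1.2-fold in either direction, and all adjusted p-values below come from this model. RIP levels of HMGCS1, FDFT1 and SQLE rose in arsenite in all 4 lines. The parental libraries moved too, from 6.75 CPM in control to 62.1 CPM in arsenite for SQLE and from 0 to 155 CPM for FDFT1. For HMGCS1 they went from 144 to 99.9 CPM. Each is a single library, the control one shallow, and the part of the background in these rises was not tested. Without INSIG1, 5 of 7 members were called higher and 0 lower in WT, where 32.1% of all genes were called higher and 35.3% lower, and 4 of 7 were called higher and 0 lower in S181E (32.9% and 35% of all genes). With INSIG1, 6 of 8 were called higher and 1 lower in Y396E (31.3% and 33.9%) and 6 higher and 1 lower in RQ (30.2% and 35.2%). The median log2 fold change of the 7 members was 0.70 in WT and 0.53 in S181E, and that of the 8 was 0.58 in Y396E and 0.72 in RQ, against −0.05, −0.02, −0.02 and −0.06 over all genes tested.

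HMGCS1, the enzyme that makes HMG-CoA, rose most. Its WT control libraries had 24.6, 31.1 and 22.3 CPM and its WT arsenite libraries 82.8, 79.5 and 77.6 CPM. The groups did not overlap, and the log2 fold change was 1.53 (SE 0.18, adjusted p = 1.04e-07). It rose by 1.49 (SE 0.18) in S181E, 1.2 (SE 0.18) in Y396E and 1.60 (SE 0.19) in RQ.

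FDFT1, squalene synthase, which commits the pathway to sterols, went from 37.6, 42.1 and 33.0 CPM in WT control to 104, 107 and 92.8 CPM in WT arsenite. All arsenite values were above all control values, with a log2 fold change of 1.33 (SE 0.19, adjusted p = 2.00e-06). The rise was 1.19 in S181E, 1.16 in Y396E and 1.35 in RQ, called in each. SQLE, the epoxidase that follows and a rate-controlling step, had 27.0, 36.7 and 29.5 CPM in WT control and 63.2, 58.8 and 58.8 CPM in WT arsenite. Its log2 fold change was 0.86 (SE 0.15, adjusted p = 3.49e-05) in WT, 0.97 in S181E, 0.53 in Y396E and 0.76 in RQ, called in all 4 lines.

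LSS, which closes the ring to lanosterol, rose in WT from 17.6, 22.3 and 8.33 CPM to 26.3, 26.8 and 31.1 CPM, with a log2 fold change of 0.70 (SE 0.24, adjusted p = 0.0140). The third control library stood low, and without it the difference was 0.40 (adjusted p = 0.0841), while without the third arsenite library the adjusted p was 0.0528. LSS also rose in Y396E (0.90, adjusted p = 0.00242) and RQ (0.80, adjusted p = 0.0108, or 0.108 without RQ arsenite replicate 2), and in S181E the difference was 0.53 with an adjusted p of 0.0604. IDI1, the isomerase of the isoprenoid units, rose in Y396E (0.63, adjusted p = 0.0356) and RQ (0.69, adjusted p = 0.0347), and these calls were lost when any of 3 libraries was left out in each line, Y396E arsenite replicate 2 (adjusted p = 0.159) and control replicates 1 (0.0630) and 3 (0.105), and RQ arsenite replicates 1 (0.133) and 2 (0.0835) and control replicate 3 (0.151). In WT and S181E the IDI1 differences were 0.48 (adjusted p = 0.0992) and 0.44 (adjusted p = 0.136). SC5D, a late desaturase, was called higher only in Y396E (0.36, adjusted p = 0.0494), a call lost when any of the 6 libraries was left out (adjusted p from 0.0563 to 0.121). In WT its libraries had 28.2, 25.8 and 15.6 CPM in control and 27.4, 23.6 and 27.4 CPM in arsenite, and these overlapped.

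SREBF2 rose less. Its WT control libraries had 735, 620 and 764 CPM and its WT arsenite libraries 986, 935 and 973 CPM, a log2 fold change of 0.35 (SE 0.09, adjusted p = 0.00102). The change was 0.32 in S181E (adjusted p = 0.00259), under that limit of size without S181E control replicate 2 (0.23), and 0.45 in RQ (adjusted p = 0.000273). In Y396E it was 0.17 with an adjusted p of 0.0873.

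INSIG1 moved the other way. In Y396E its control libraries had 38.1, 33.2 and 33.6 CPM and its arsenite libraries 22.0, 25.7 and 17.9 CPM. The groups did not overlap, and INSIG1 fell by 0.68 on the log2 scale (SE 0.15, adjusted p = 0.000426). In RQ the control libraries had 54.8, 55.2 and 54.9 CPM and the arsenite libraries 46.2 and 39.2 CPM, a fall by 0.43 (SE 0.17, adjusted p = 0.0290). Without RQ arsenite replicate 2 the difference was −0.31 (adjusted p = 0.229), and without RQ control replicate 2 the adjusted p was 0.0563.

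**Figure D2:**
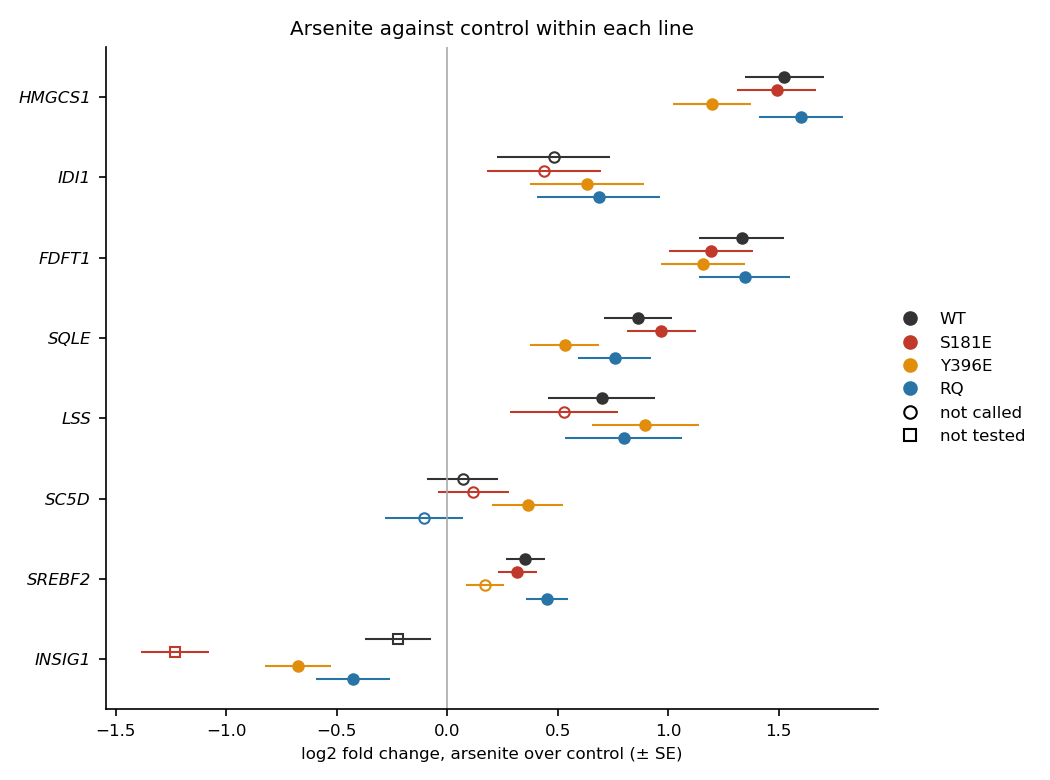
Log2 fold change of arsenite over control (horizontal axis, bars are ± SE of the model) for each of the 8 mRNAs in the 4 lines. Filled circles were called, open circles were not and open squares were not tested. HMGCS1, FDFT1 and SQLE lie to the right of 0 in all lines, from 0.53 to 1.60, and INSIG1 lies to the left, from −1.23 in S181E to −0.22 in WT.

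Each mutant line was next compared with the WT line under the same treatment. In S181E, SREBF2 and SQLE were lower than in WT under both treatments, by somewhat more than 2-fold. In control, 2 of 7 members were called lower and 0 higher, where 10.1% of all genes were called lower and 10% higher. In arsenite, 2 of 7 were called lower and 0 higher, where 5.16% of all genes were called lower and 3.07% higher. The median log2 fold change of the 7 was −0.51 in control and −0.56 in arsenite, against 0.00 and 0.03 over all genes tested.

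SREBF2 in S181E control libraries was 311, 275 and 354 CPM, where the WT control libraries had 620 to 764 CPM, and the log2 fold change was −1.21 (SE 0.09, adjusted p = 4.02e-09). In arsenite S181E had a mean of 400.2 CPM ± 7.25 (SD, n = 3) against 935 to 986 CPM in WT, −1.25 (SE 0.09, adjusted p = 2.16e-09). The S181E mean of SREBF2 was 0.828-fold the parental level in control and 1.33-fold in arsenite, and that of SQLE in arsenite was 0.463-fold. SQLE in S181E was 13.8, 17.8 and 11.2 CPM in control and 29.0, 30.8 and 26.3 CPM in arsenite. No S181E library overlapped WT in either treatment, and the log2 fold changes were −1.16 (SE 0.16, adjusted p = 1.89e-05) and −1.05 (SE 0.15, adjusted p = 7.45e-05).

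In arsenite the same-numbered S181E and WT libraries deviated together, and with the replicate number as a block 4 members were called lower rather than 2. The added calls were LSS and FDFT1. Without the block LSS was −0.70 (SE 0.24, adjusted p = 0.0801) and FDFT1 −0.49 (SE 0.19, adjusted p = 0.122), while HMGCS1 was −0.42 and IDI1 −0.56 (adjusted p = 0.153 and 0.207). All 4 had S181E libraries below all WT libraries in arsenite. How many of all genes tested were as separate was not counted, so this adds nothing to the calls. SC5D was 0.20 (SE 0.16).

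In Y396E, 4 of 7 members were called lower and 0 higher in control (15.6% and 13.2% of all genes) and 4 lower and 0 higher in arsenite (17.9% and 15.5%). They were SREBF2, SQLE, HMGCS1 and IDI1 in each treatment. SREBF2 was 350, 318 and 326 CPM in control and 354, 379 and 384 CPM in arsenite, well below every WT library, with log2 fold changes of −1.12 (SE 0.09, adjusted p = 5.93e-09) and −1.31 (SE 0.09, adjusted p = 3.89e-10). SQLE was 15.3, 15.0 and 13.7 CPM in control and 20.7, 21.3 and 21.5 CPM in arsenite, with log2 fold changes of −1.11 (SE 0.16) and −1.44 (SE 0.15, adjusted p = 3.86e-07). Against the parental library the Y396E mean of SREBF2 was 0.875-fold in control and 1.24-fold in arsenite, and that of SQLE in arsenite was 0.341-fold. HMGCS1 was −0.85 in arsenite (SE 0.17, adjusted p = 0.000717), with Y396E libraries of 43.6, 41.9 and 41.9 CPM. In control it was −0.52 (adjusted p = 0.0338), and this was lost without WT control replicate 2 (adjusted p = 0.154) or Y396E control replicate 3 (0.134). The IDI1 calls (−0.82 in control and −0.67 in arsenite) were lost when any of 3 control libraries, WT replicate 3 and Y396E replicates 1 and 3 (adjusted p from 0.0525 to 0.123), or any of 5 arsenite libraries, all of WT and Y396E replicates 1 and 3 (0.0549 to 0.140), was left out. Without Y396E control replicate 3, 2 members in place of 4 were called in control. FDFT1, LSS and SC5D were between −0.35 and 0.16 in both treatments and were not called. In arsenite FDFT1 was called lower with the replicate number as a block (−0.35, adjusted p = 0.0345 by edgeR's test). It was also called there with scaling factors from genes not above parental and with only the groups compared in the fit.

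In RQ no member was called in either direction in either treatment. Of all genes 3.22% were called higher and 3.57% lower in control, and 0.286% and 0.252% in arsenite. These shares moved with the fit: with only the groups compared, 3 genes were called higher and 3 lower in control in place of 281 and 312, and 520 and 470 in arsenite in place of 25 and 22. At an unadjusted p under 0.05 there was 1 of the 7 in control and 0 in arsenite, a share not counted over all genes tested. DESeq2's Wald test called none. In arsenite it gave an adjusted p to only 3993 of 8734 genes, and a member without one could not be called. SREBF2 was 773, 678 and 725 CPM in RQ control and 1061 and 1011 CPM in RQ arsenite. Its log2 fold changes against WT were 0.02 (SE 0.09) and 0.12 (SE 0.10), and those of SQLE 0.21 (SE 0.15) and 0.11 (SE 0.17).

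**Figure D3:**
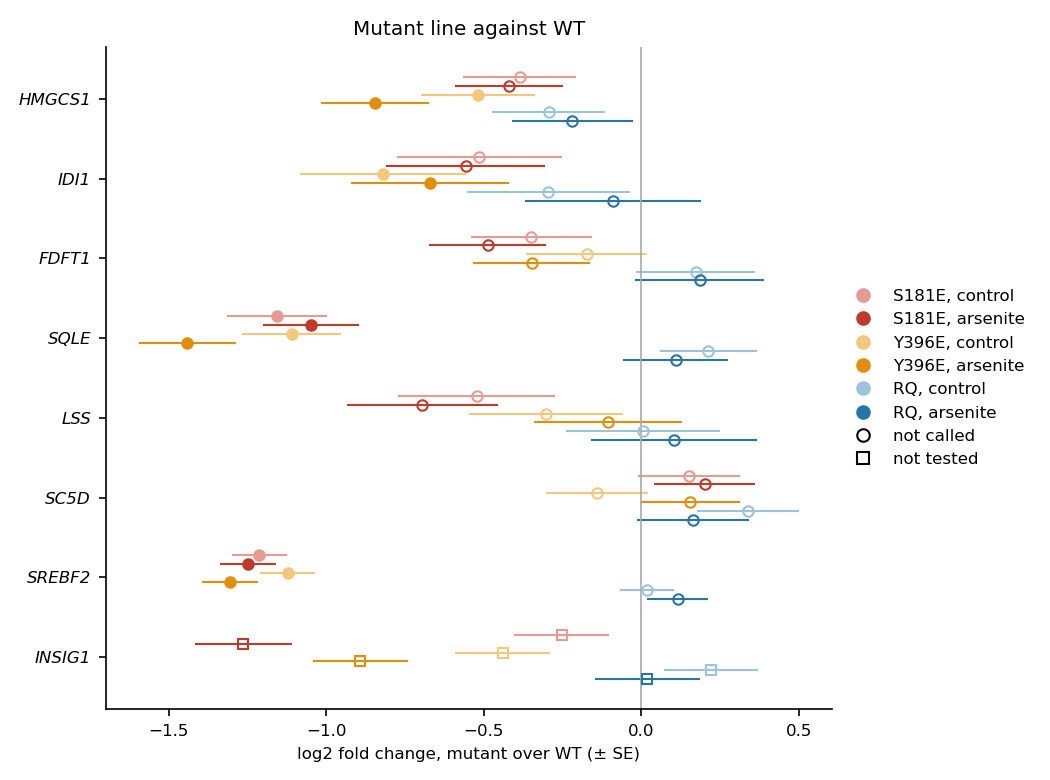
Log2 fold change of each mutant over WT (horizontal axis, bars are ± SE of the model) for the 8 mRNAs, in control (pale) and in arsenite (dark). Filled circles were called, open circles were not and open squares were not tested. SREBF2 and SQLE lie between −1.44 and −1.05 in S181E and Y396E and between 0.02 and 0.21 in RQ.

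Whether the response to arsenite itself differed between a mutant and WT is the interaction of line and treatment. For Y396E 0 of 7 members were called, where 0.641% of all genes were called higher and 1.4% lower, and for RQ 0 of 7, where 0.0572% were called higher and 0.0114% lower. None of the 7 had an unadjusted p under 0.05 in either line, a share not counted over all genes tested. Of the 34 further pathway genes described below, 8 had one for Y396E and 9 for RQ. For S181E the interaction chose INSIG1 and is given without a test. It was −1.01 (SE 0.21) for INSIG1 and between −0.17 (LSS) and 0.11 (SQLE) for the other 7, with standard errors of 0.12 to 0.36.

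The INSIG1 values behind that choice were as follows. WT libraries had 40.1, 58.4 and 40.9 CPM in control and 45.0, 41.2 and 41.4 CPM in arsenite, which overlapped. S181E libraries had 38.4, 43.7 and 37.9 CPM in control, within or just below the WT range, and 18.6, 18.4 and 15.3 CPM in arsenite, below every other mCherry library but the lowest of Y396E in arsenite at 17.9 CPM. Against WT, again without a test, the log2 differences of INSIG1 in control and in arsenite were −0.25 and −1.26 in S181E, −0.44 and −0.89 in Y396E, and 0.22 and 0.02 in RQ. From high to low, the group means were 54.9 CPM ± 0.203 (SD, n = 3) in RQ control, 46.5 ± 10.4 in WT control, 42.7 in RQ arsenite (n = 2), 42.5 ± 2.14 in WT arsenite, 40.01 ± 3.19 in S181E control, 35.0 ± 2.69 in Y396E control, 21.9 ± 3.90 in Y396E arsenite and 17.4 ± 1.84 in S181E arsenite. Each neighbouring pair overlapped from RQ control down to Y396E control, so these 6 groups could not be ordered step by step, and the lowest pair overlapped too. The step from Y396E control to Y396E arsenite was the only one between neighbours without overlap. The parental arsenite library had 60.9 CPM, above all mCherry libraries, and the parental control library had no INSIG1 count.

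The genes whose log2 CPM followed INSIG1 most closely over the 23 mCherry libraries were EHBP1 (Pearson r = 0.914), ZFAND1 (0.906), WNT16 (0.903), RIPK2 (0.899) and RRM2B (0.894). These libraries share their groups, and with group means removed the correlations were 0.46, 0.49, 0.04, −0.23 and 0.06. Among the members INSIG1 correlated with SREBF2 at 0.523 and with HMGCS1 at −0.335, while HMGCS1 and FDFT1 correlated at 0.914 and SQLE and SREBF2 at 0.911. With group means removed the last 2 pairs were at 0.37 and −0.46. These are descriptions over libraries that share lines and treatments, among them the WT and S181E libraries whose INSIG1 values chose that gene.

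The rest of the pathway was described from lists of 43 further genes for mevalonate synthesis, the steps from lanosterol to cholesterol, SREBP control, cholesterol uptake and transport, and fatty acid synthesis, of which 34 passed the filter. CYP51A1 did not, and 71.8% of its exonic bases overlap other genes on the same strand, so that its reads could be lost in counting. In arsenite against control 18 of the 34 were called higher and 6 lower in WT (32.1% and 35.3% of all genes), 21 and 5 in S181E (32.9% and 35%), 18 and 5 in Y396E (31.3% and 33.9%), and 18 and 6 in RQ (30.2% and 35.2%). The largest changes in WT were in TM7SF2, a sterol reductase (log2 fold change 2.64, SE 0.13), SYVN1, a ubiquitin ligase of the endoplasmic reticulum (1.99, SE 0.13), and FASN, fatty acid synthase (1.90, SE 0.10). ACLY, which makes cytosolic acetyl-CoA, rose by 1.73 in WT, 2.00 in S181E, 2.17 in Y396E and 2.08 in RQ. SREBF1, the relative of SREBF2 that drives fatty acid synthesis, rose by 1.63, 1.79, 1.72 and 2.10. The 4 tested genes of mevalonate synthesis outside the 8 rose in 3 of 4 cases in WT and in 4 of 4 in each mutant. The genes of SREBP control were called in both directions in every line, with 2 of 8 higher and 2 lower in WT, shares near those of all genes.

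Against WT, 1 of the 34 was called higher and 15 lower in S181E in control (10% and 10.1% of all genes), and 0 higher and 11 lower in arsenite (3.07% and 5.16%). In Y396E 6 were higher and 11 lower in control (13.2% and 15.6%) and 4 higher and 13 lower in arsenite (15.5% and 17.9%). In RQ 3 were higher and 2 lower in control (3.22% and 3.57%) and none was called in arsenite (0.286% and 0.252%). At an unadjusted p under 0.05 there were 6 of the 34 for RQ in arsenite. That share was not counted over all genes tested, and the shares printed here are for adjusted calls. The median log2 fold change of the 34 in arsenite was −0.16 in S181E and −0.17 in Y396E, against 0.03 and 0.04 over all genes tested. SCD, the stearoyl-CoA desaturase, was among the largest differences in both phosphomimetic lines: it had 1643 to 1715 CPM in WT arsenite libraries, 603 to 657 in S181E and 579 to 610 in Y396E, with log2 fold changes of −1.39 (SE 0.09) and −1.44 (SE 0.09), and −1.28 and −1.16 in control. The parental arsenite library had 1002 CPM of SCD, below WT and above both mutants. TM7SF2 was −1.14 (SE 0.12) in S181E and −1.63 (SE 0.12) in Y396E in arsenite, and −0.93 and −0.96 in control. In arsenite STARD4, a sterol carrier, was −0.67 in S181E and −0.69 in Y396E, and ELOVL6, a fatty acid elongase, was −0.50 and −0.79, called in each. In control NPC2, a lysosomal cholesterol carrier, was −0.98 in Y396E. In RQ control MBTPS1, the site-1 protease of SREBPs, was 0.65, STARD4 0.51 and NSDHL, a sterol dehydrogenase, −0.58 (adjusted p = 0.0470). The STARD4 call was lost without RQ replicate 1 or WT replicate 1 (adjusted p = 0.0524 and 0.0656) and that of NSDHL without any RQ library or WT replicates 2 or 3 (0.0628 to 0.128). Fatty acid synthesis was the list with the largest share called lower in arsenite, 5 of 8 in S181E with 0 higher, and 5 of 8 in Y396E with 1 higher.

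**Figure D4:**
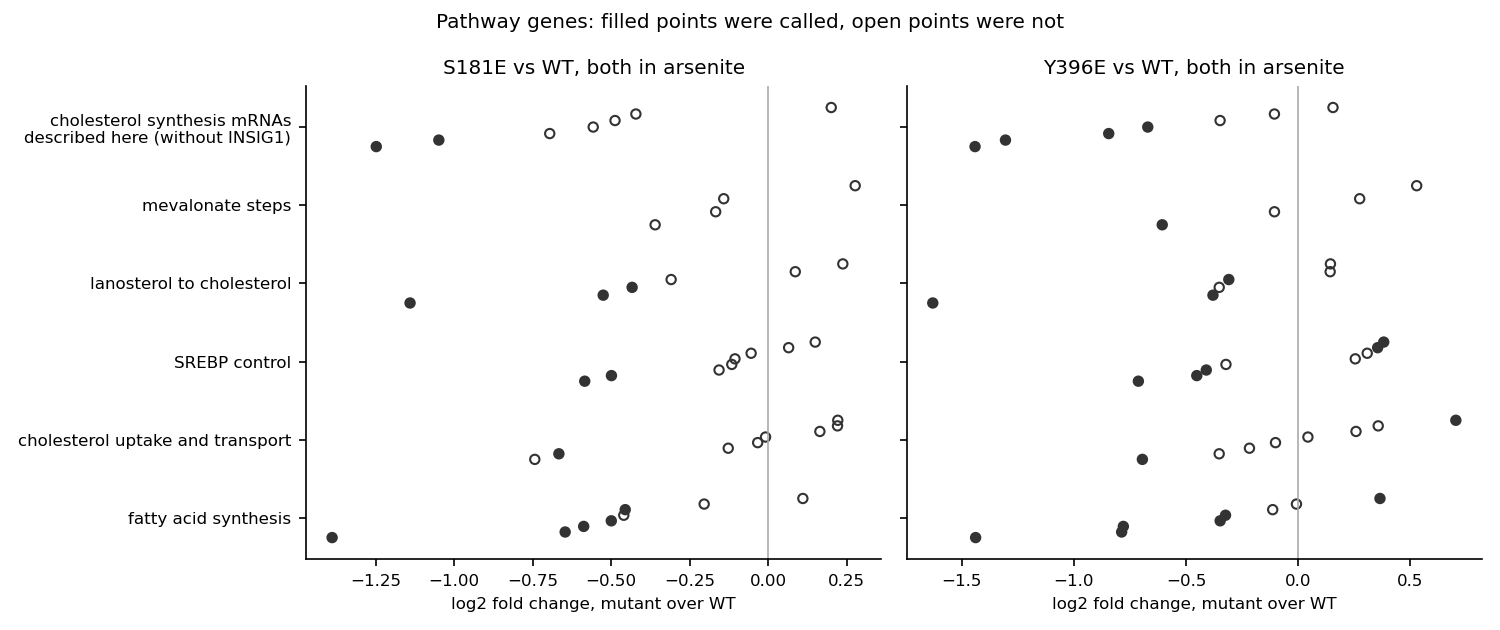
Log2 fold change over WT in arsenite (horizontal axis) of each tested gene of the pathway lists, for S181E (left) and Y396E (right), with filled points for called genes and the 7 members without INSIG1 in the top row. Called genes lie mostly left of 0, with 11 lower and 0 higher among the 34 list genes in S181E and 13 lower and 4 higher in Y396E.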

How the data were processed

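Per the file headers and the methods, the authors counted reads on exons per gene with featureCounts (Subread 2.0.6, reverse-stranded, GENCODE 46) after aligning them to hg38 with STAR 2.7.11b, allowing 2 mismatches. The deposited values are raw counts per library. Reads that map to several places are left out by featureCounts' default, which lowers genes with near-identical copies. Symbols and biotypes came from GENCODE 44 by identifier, and 62541 of 63086 identifiers matched.

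Of the protein-coding genes, 8734 exceeded 10 CPM in 11.5 or more of 23 mCherry libraries and entered edgeR 4.0.16 (R 4.3.3): TMM over these genes, 8 groups, no covariate, quasi-likelihood test, Benjamini-Hochberg adjustment. Printed CPM use TMM over all 25 libraries and protein-coding genes. The parental libraries entered no test. Correlations used log2(CPM + 1). The members, lists and tests were chosen with earlier results of these data known. Named are the 8 members, the 3 called list genes with the largest change per comparison, the 5 genes most like INSIG1, and the IGF2BP genes. A list gene that this rule names is not reported here. The element searched in mRNAs was added after the values were seen. The procedure was tested on simulated data. Alternatives covered the scaling, DESeq2 1.42.0, the filters, the groups in the fit, the replicate block and leaving out each library.

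Shared replicate numbers were checked by the correlation of same-numbered libraries' deviations from their group means. These were 0.289 to 0.400 for S181E and WT in arsenite, which counts as pairing, and no other comparison had every pair above 0.1 with 3 pairs. The labels and methods name no shared batch.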

Additional observations from a re-analysis of the deposited data

Results flagged for a closer look

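In the interaction of Y396E with arsenite, 2 list genes responded differently than in WT by edgeR's test of the interaction. TM7SF2 rose less in Y396E, with an interaction of −0.67 (SE 0.17, adjusted p = 0.0401), and NR1H2, a liver X receptor, had an interaction of 0.84 (SE 0.21, adjusted p = 0.0406). In arsenite against control NR1H2 was −1.17 in WT, called lower, and −0.33 in Y396E, not called. The TM7SF2 call was lost when any of 8 of the 12 libraries was left out (−0.70 to −0.60, adjusted p from 0.0560 to 0.130) and the NR1H2 call when any of 9 was (0.69 to 0.86, adjusted p from 0.0529 to 0.137). Counting the changes of processing too, the NR1H2 call was lost in 14 runs and kept in 8.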

How the results depend on the processing

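No fold change of a member or named list gene that was recomputed changed its direction under any alternative run. For S181E against WT in arsenite, 2 members were called, and 4 with TMM factors from 3707 genes not above parental, 4 without a filter on low counts (16940 genes), 6 with only the groups compared in the fit, and 4 with the replicate block. The block moved no other count of members by more than 1.5 times. For Y396E against WT in control, 4 members were called, and 2 with total counts and 2 with only the groups compared, and leaving out a library gave 2 to 4. For RQ in arsenite against control, 7 were called, and 4 to 7 with a library left out. The S181E interaction of INSIG1 was −1.01, and −1.21 to −0.91 with a library left out, the lowest without WT control replicate 2. Of 4 members 4-fold over the parental library in WT control, 0 were so against the parental arsenite library. In WT arsenite 0 were so, 1 at 2-fold, and 4 against the parental control library. The causes were not tested. Medians of all genes, which lie near 0, did change sign: with total counts that of WT in arsenite against control went from −0.05 to 0.08, and with factors from genes not above parental that of Y396E against WT in arsenite from 0.04 to −0.21. The widest move was from 0.01 to 0.33 (Y396E against WT in control, total counts). Total counts moved the split of all genes called higher and lower against WT from 876 and 881 to 2456 and 376 (S181E, control), from 1154 and 1363 to 3712 and 481 (Y396E, control), from 281 and 312 to 767 and 165 (RQ, control), from 268 and 451 to 898 and 281 (S181E, arsenite) and from 1354 and 1566 to 2790 and 886 (Y396E, arsenite). They moved WT in arsenite against control from 2801 and 3080 to 3205 and 2624, and the Y396E interaction from 56 and 122 to 34 and 536. With the factors from genes not above parental, Y396E against WT in arsenite gave 351 and 2771, S181E 98 and 485, and the Y396E interaction 28 and 335. With only the groups compared, S181E against WT gave 152 and 250 in control and 822 and 1047 in arsenite, Y396E 491 and 771, and 2193 and 2257. With the replicate block S181E against WT in arsenite gave 461 and 674, RQ 508 and 572 in control and 66 and 106 in arsenite, and the Y396E interaction 257 and 352. DESeq2 gave 132 and 251 for that interaction and 40 and 76 for RQ against WT in arsenite, there among 3993 genes with an adjusted p. TMM over all protein-coding genes, added after seeing the data, kept the member counts within 1.5 times. Over all biotypes IDI1 was not tested. The INSIG1 call in RQ was lost under 8 of its alternatives and the SC5D call in Y396E under 10. The depth of the parental control library limits every ratio to it, and 2 RQ arsenite libraries limit that group.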
